A study of Mus musculus with 24 samples.

Results

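T6E, a cultured mouse line of T-cell acute lymphoblastic leukaemia that needs Notch1 to grow, was compared with the Notch signal blocked at 2 steps at once and with the signal left running. The blocked cells carried DNMAML, a dominant negative Mastermind-like, and received the gamma-secretase inhibitor (GSI) compound E at 1 uM for 6 hours (DNMAML-GSI, 3 arrays). The unblocked cells carried the empty vector MigR1 and received DMSO for 6 hours (MigR1-DMSO, 3 arrays). The arrays were taken by the construct and treatment in their titles, and they are 6 of the 24 in the series. The series' other groups compared, of 3 arrays each, were DNMAML cells in DMSO (DNMAML-DMSO), empty-vector cells with GSI (MigR1-GSI) and cells given intracellular Notch1 with GSI (ICN1-GSI). The remaining groups, also of 3 arrays each, are titled ICN1-DMSO, R1984A-DMSO and R1984A-GSI. They were in no comparison, but they entered the estimate of the spread that the fit shares over all 24 arrays. All groups are the same cell line. The labels state neither how long the cells had carried a construct before the treatment nor whether they were a pool or a clone.

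Notch receptors are cut by gamma-secretase after a ligand binds, or without a ligand when mutated in leukaemia. The freed intracellular part enters the nucleus, joins the DNA-binding protein RBPJ and recruits Mastermind-like, which brings the transcription machinery. GSI stops the cut, and DNMAML occupies the Notch and RBPJ surface without recruiting the machinery, so the inhibitors act before and after the release of the intracellular part. Intracellular Notch1 needs no cut and so carries the signal past GSI. In T-cell leukaemia Notch1 is known for driving Myc, cell growth and its own feedback inhibitors.

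Values are the deposited log2 expression values, and a difference is DNMAML-GSI minus MigR1-DMSO on the log2 scale unless another pair is named, so that 1 unit is a doubling. Each is given with its standard error (SE) or 95% interval from limma. A gene was called, and is said to have risen or fallen, when its Benjamini-Hochberg adjusted p over all 19938 genes was under 0.05. Arrays of a group correlated across genes with r of 0.982 to 0.994, and the medians of the 24 arrays were 3.90 to 4.18. The replicate 3 arrays had medians of 4.05 to 4.18 and the others 3.90 to 4.07, and every group holds one array of each number. Values near these medians are close to the level of the typical probe set. Cd3e, the T-cell receptor chain that marks the lineage, had 10.27, 10.39 and 10.42 in DNMAML-GSI, against 10.40, 10.19 and 10.30 in MigR1-DMSO. The label check gave no called difference for Notch1 (-0.41, SE 0.13, adjusted p = 0.11), Maml1 (0.14, SE 0.13, adjusted p = 0.84) or Rbpj (0.46, SE 0.19, adjusted p = 0.32, and 0.045 with the replicate number as a block). In ICN1-GSI against MigR1-GSI, Notch1 was called higher. Where the probe sets of Notch1, Maml1 and Rbpj lie relative to the parts in the constructs was not examined, so they do not show whether DNMAML was made.

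Both blocks together changed 529 of the 19938 genes (2.65%), with 280 higher (1.40%) and 249 lower (1.25%). At an unadjusted p under 0.05 there were 2229 genes, and 996.9 would be expected with no difference. The median difference over all genes was -0.002. The largest changes ran to both sides, with 32 genes higher and 49 lower by more than 1. Genes named by size here and below were taken from called genes whose groups do not overlap. A lack of overlap in them was thus set by the choice and is no separate result. Samples with the same replicate number deviated together, and with the number as a block 1170 genes were called, 662 higher and 508 lower. Counts with the block in the lists below belong beside these 662 and 508 of 19938 genes. The shares of 1.40% and 1.25% hold only without the block. Leaving out 1 of the 6 arrays gave 328 to 387 genes, lowest without DNMAML-GSI replicate 2 (328), DNMAML-GSI replicate 3 (329), MigR1-DMSO replicate 2 (332) and MigR1-DMSO replicate 3 (332). Without all replicate 1 arrays 179 genes were called and without all replicate 2 arrays 61. These are bulk samples, in which fewer cells of a kind and less RNA per cell cannot be told apart.

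**Figure D1:**
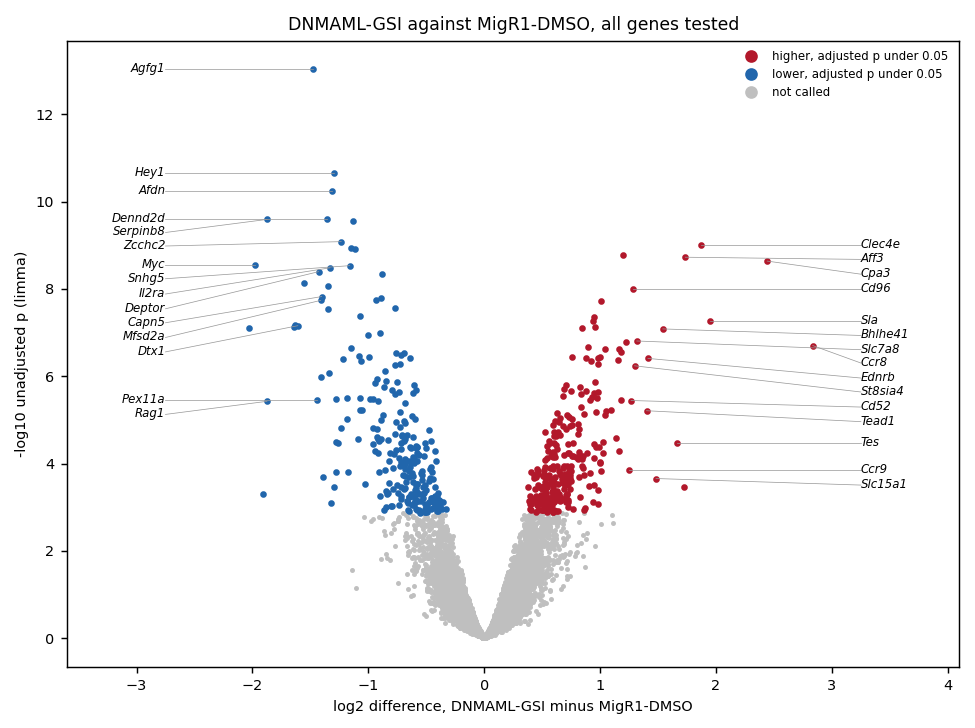
Each point is 1 of the 19938 genes, with the log2 difference of DNMAML-GSI minus MigR1-DMSO on the horizontal axis and -log10 of limma's unadjusted p on the vertical axis. Red points are the 280 genes called higher and blue points the 249 called lower, and the 15 named genes on each side carry their names, of which Ccr8 at 2.83 and Myc at -1.98 lie farthest out.

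Known Notch targets were among the genes that fell most, with the growth gene Myc and the feedback genes Dtx1, Hey1 and Nrarp each lower by more than 1. Of 32 measured genes on a list of Notch targets, 10 fell (31.2%, against 1.25% of all genes) and 3 rose (9.38%, against 1.40%), and the median of the list was -0.08. Without all replicate 2 arrays 5 fell and 2 rose, and without all replicate 3 arrays the median was 0.004. Myc, a transcription factor of cell growth, had 7.59, 7.45 and 6.85 in DNMAML-GSI, against 9.32, 9.27 and 9.24 in MigR1-DMSO. The 3 blocked arrays all lay more than 1 unit below the unblocked ones, and Myc had the largest fall of the 15 genes named by size (-1.98, SE 0.21, adjusted p = 3.9e-06). Dtx1, which encodes the Notch-binding ubiquitin ligase Deltex1, had 4.25, 4.77 and 5.55 in DNMAML-GSI, against 6.57, 6.40 and 6.41 in MigR1-DMSO. The groups did not overlap, as for 7.65% of all genes in this direction and 8.49% in the other, and the blocked arrays spread more widely than the unblocked ones (-1.61, SE 0.21, adjusted p = 4.1e-05).

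Hey1, a basic helix-loop-helix repressor that Notch induces, had 8.68, 8.43 and 8.37 in DNMAML-GSI, against 9.89, 9.79 and 9.69 in MigR1-DMSO. The groups stood apart, and this fall had the smallest adjusted p among the Notch targets (-1.30, SE 0.11, adjusted p = 2.1e-07). Even so, Hey1 stayed far above the array medians in the blocked cells. Nrarp, a feedback inhibitor that binds the Notch complex, had 4.16, 4.10 and 4.25 in DNMAML-GSI, against 5.12, 5.41 and 5.38 in MigR1-DMSO (-1.13, SE 0.11, adjusted p = 9.3e-07). Its blocked arrays were at the level of the array medians. Hes1, another repressor that Notch induces, had 4.39, 4.35 and 4.15 in DNMAML-GSI, against 4.81, 4.84 and 4.77 in MigR1-DMSO. It was the weakest call of the list (-0.51, SE 0.14, adjusted p = 0.0498), and leaving out any 1 of the 6 arrays ended it, with adjusted p up to 0.22.

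Deptor, an inhibitor of mTOR, had 4.47, 4.54 and 4.36 in DNMAML-GSI, against 5.82, 6.05 and 5.78 in MigR1-DMSO (-1.43, SE 0.15, adjusted p = 4.7e-06). Runx1, a transcription factor of blood development, fell by 0.62 (SE 0.11, adjusted p = 0.0013). Notch3, a Notch receptor and itself a target, fell by 0.58 (SE 0.14, adjusted p = 0.018), and its replicate 3 arrays were close, at 5.77 in DNMAML-GSI and 5.81 in MigR1-DMSO. Trib2, a pseudokinase, fell by 0.54 (SE 0.12, adjusted p = 0.013). The calls of both were lost without DNMAML-GSI replicate 1 or 2 or MigR1-DMSO replicate 2, that of Notch3 also without MigR1-DMSO replicate 1 (adjusted p up to 0.13) and that of Trib2 without MigR1-DMSO replicate 3 (up to 0.095).

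Il2ra, which encodes the interleukin-2 receptor's alpha chain, had 5.98, 6.35 and 5.87 in DNMAML-GSI, against 7.43, 7.46 and 7.31 in MigR1-DMSO. All blocked arrays were lower, and the groups were separate (-1.33, SE 0.14, adjusted p = 4.1e-06). RBPJ is known to bind the letters GTGNGAA. Among the 250 bases upstream of the RefSeq start (GRCm38.p6), Il2ra was the only one with a match on either strand of the 6 fallen Notch targets that had a sequence. That sequence is shown because it holds the match, at chr2:11642542-11642791 on the plus strand, with the capitals marking the match on the opposite strand.
Il2ra: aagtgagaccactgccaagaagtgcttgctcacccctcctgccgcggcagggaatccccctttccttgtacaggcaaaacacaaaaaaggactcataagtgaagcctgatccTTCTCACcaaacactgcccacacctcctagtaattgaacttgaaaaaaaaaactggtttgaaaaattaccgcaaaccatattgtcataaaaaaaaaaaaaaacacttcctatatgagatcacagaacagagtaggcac
The match began 138 bases before the start. Of all 15562 genes with a sequence 13.2% held a match, as did 33 of 182 fallen genes (18.1%) and 18 of 226 risen genes (7.96%). A pair of matches pointing toward each other with 15 to 19 bases between them occurred in 3 of the 15562 genes and in 0 of those called. A match is a description of letters and not a binding site, and distant enhancers were not searched.

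The 3 list members that rose were Bhlhe41, a repressor linked to the circadian clock, Lztfl1, a regulator of cilium traffic, and Gata3, a transcription factor of early T cells. Lztfl1 had 10.42, 10.78 and 10.54 in DNMAML-GSI, against 9.39, 9.24 and 9.50 in MigR1-DMSO. Every blocked array was above every unblocked one (1.20, SE 0.12, adjusted p = 3.0e-06). Bhlhe41 rose by 1.54 (SE 0.20, adjusted p = 4.2e-05) and Gata3 by 0.61 (SE 0.11, adjusted p = 0.0017). Among 42 measured components of the pathway itself, 0 rose (against 1.40% of all genes) and 3 fell (7.14%, against 1.25%). These were Dtx1, Notch3 and the ligand gene Jag1 (-0.69, SE 0.13, adjusted p = 0.0035), and the list's median was -0.01, with a range of -0.02 to 0.05 over the alternatives. With the replicate block 3 of the 42 rose and 4 fell.

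**Figure D2:**
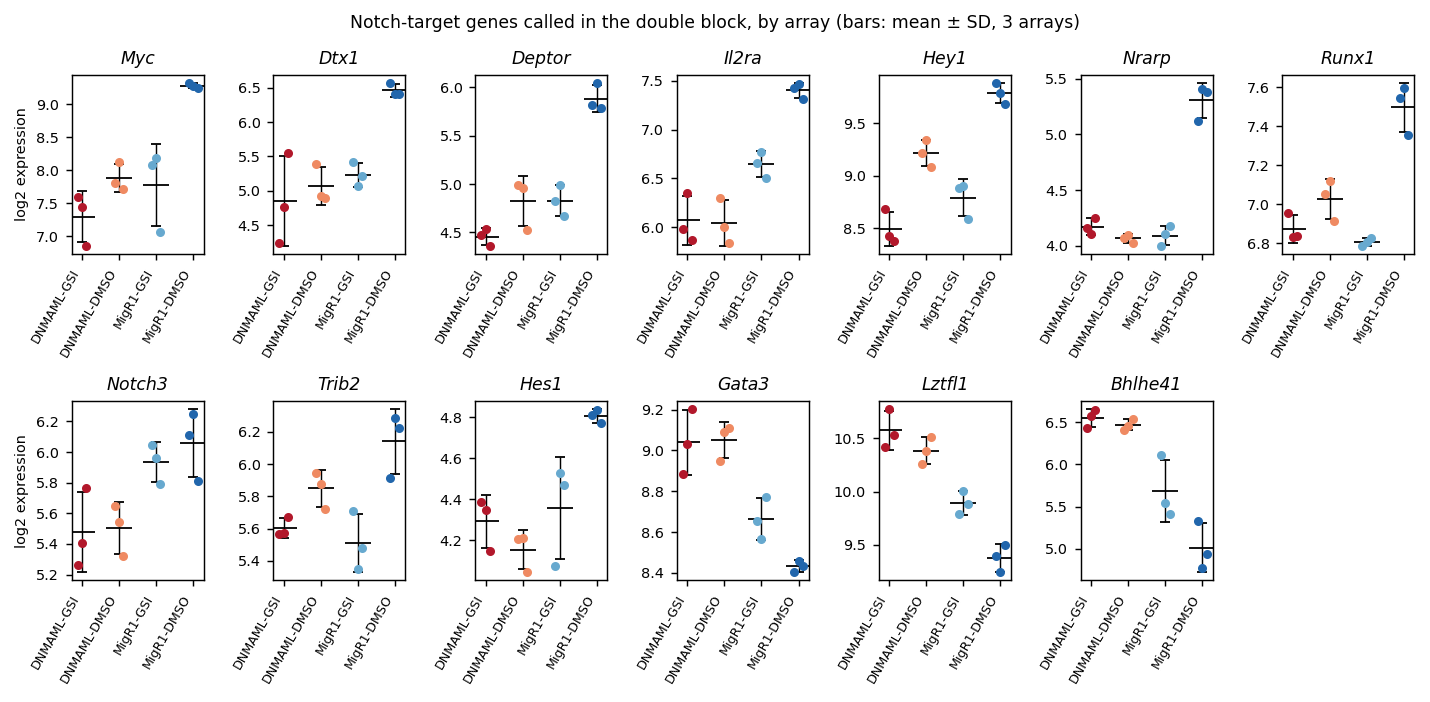
The log2 expression of the 13 called Notch-target genes is shown for each array of DNMAML-GSI, DNMAML-DMSO, MigR1-GSI and MigR1-DMSO, from left to right in each panel, with bars for the mean ± SD of 3 arrays. The 10 genes from Myc to Hes1 are lower in DNMAML-GSI than in MigR1-DMSO and the 3 from Gata3 to Bhlhe41 are higher, and each panel has its own vertical scale.

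Outside the Notch target list, and with small RNAs left out of the genes named by size, large falls included those of Serpinb8, Rag1, Agfg1 and Afdn. Agfg1, which encodes an ArfGAP-domain protein of vesicle traffic, had 8.57, 8.49 and 8.47 in DNMAML-GSI, against 9.90, 9.92 and 10.14 in MigR1-DMSO. Its groups were far apart, with little spread in either (-1.48, SE 0.09, adjusted p = 1.8e-09). Afdn, the adherens-junction scaffold afadin, had 7.76, 7.78 and 7.73 in DNMAML-GSI, against 9.02, 9.04 and 9.15 in MigR1-DMSO (-1.31, SE 0.11, adjusted p = 3.7e-07). Serpinb8, a serine protease inhibitor, had 4.42, 3.88 and 4.09 in DNMAML-GSI, against 6.27, 5.83 and 5.91 in MigR1-DMSO, so that the blocked arrays were near the array medians (-1.87, SE 0.17, adjusted p = 9.3e-07).

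Mfsd2a, a lysophospholipid transporter, fell by 1.41 (SE 0.17), the calpain protease gene Capn5 by 1.40 (SE 0.16) and Pex11a, which promotes peroxisome division, by 1.44 (SE 0.24). Dennd2d, of the DENN family that activates Rab GTPases, fell by 1.35 (SE 0.13), the zinc-finger gene Zcchc2 by 1.23 (SE 0.12) and Snhg5, a host gene of small nucleolar RNAs, by 1.16 (SE 0.12). Adjusted p of these 6 genes ran up to 6.9e-04. Rag1, a subunit of the recombinase that cuts antigen receptor genes, had 3.38, 3.42 and 3.25 in DNMAML-GSI, against 5.84, 5.40 and 4.43 in MigR1-DMSO. The unblocked arrays spread over more than 1 unit and still lay above the blocked ones, which were below the array medians (-1.87, SE 0.31, adjusted p = 7.1e-04).

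Of 48 measured Myc and ribosome biogenesis genes, 0 rose and 20 fell (41.7%, against 1.25% of all genes), 44 had a difference below 0 and the median was -0.51. With the replicate block 28 fell, beside 508 of all 19938 genes. Without all replicate 2 arrays 3 fell and without all replicate 1 arrays 10. The largest falls of the list were in Ndufaf4, an assembly factor of respiratory complex I (-1.11, SE 0.11), Srm, the spermidine synthase (-1.06, SE 0.15), Nolc1, a nucleolar phosphoprotein (-1.0, SE 0.13), and Ddx21, a nucleolar RNA helicase (-1.0, SE 0.14), with adjusted p up to 1.4e-04. Gnl3, the nucleolar GTPase nucleostemin, fell by 0.94 (SE 0.11, adjusted p = 1.4e-05). Polr1a and Polr1b, the large subunits of RNA polymerase I, which makes ribosomal RNA, fell by 0.76 (SE 0.11) and 0.92 (SE 0.17), with adjusted p = 1.2e-04 and 0.0023.

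Nop2, a methyltransferase of ribosomal RNA, had 6.35, 6.47 and 6.47 in DNMAML-GSI, against 7.38, 7.35 and 7.12 in MigR1-DMSO. All 3 blocked arrays were lower (-0.85, SE 0.19, adjusted p = 0.011, and up to 0.053 without MigR1-DMSO replicate 1 or 2). Myc binds the E-box CACGTG, which reads the same on both strands. Of the 41 list genes with an upstream sequence 8 held an E-box in the 250 bases before the start. They were 1 of the 17 that fell and 7 of the 24 that were not called, against 8.12% of all 15562 genes. The one that fell was Nop2, and its sequence is shown for that reason (chr6:125131633-125131882, plus strand, GRCm38.p6, with the E-box in capitals).
Nop2: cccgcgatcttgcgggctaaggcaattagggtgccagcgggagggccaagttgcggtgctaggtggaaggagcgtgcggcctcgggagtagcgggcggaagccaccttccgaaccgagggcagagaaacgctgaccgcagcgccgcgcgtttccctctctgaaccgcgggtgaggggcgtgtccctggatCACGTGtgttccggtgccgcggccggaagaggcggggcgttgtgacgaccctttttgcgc
The E-box began 60 bases before the start. Over all genes called, 22 of 182 that fell (12.1%) and 17 of 226 that rose (7.52%) held one.

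**Figure D3:**
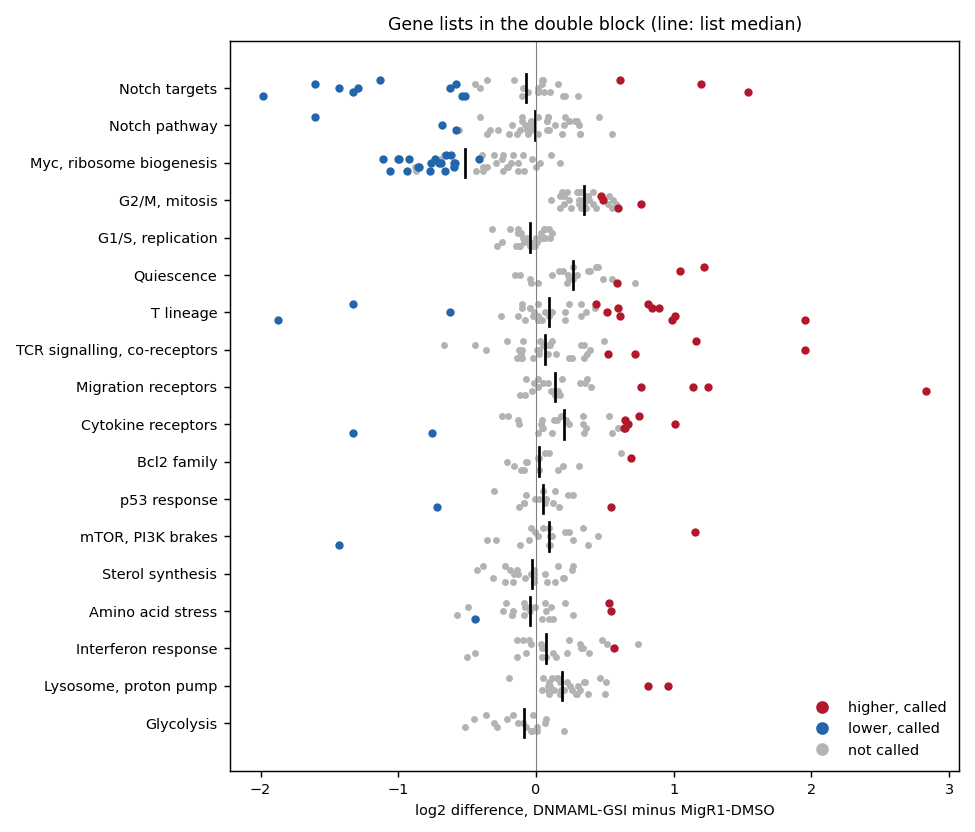
Each point is a measured gene of 1 of 18 lists, placed by its log2 difference of DNMAML-GSI minus MigR1-DMSO, with called genes in red (higher) or blue (lower), the others in grey and a black line at the list median. The Myc and ribosome biogenesis list has its median at -0.51 and the G2/M list at 0.35, and the other medians lie between -0.08 and 0.27.

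The 15 named genes that rose most were led by Ccr8, Cpa3 and Sla. Ccr8, a chemokine receptor, had 8.93, 9.10 and 9.21 in DNMAML-GSI, against 6.58, 6.08 and 6.07 in MigR1-DMSO. The groups were more than 2 units apart, the largest difference among the genes named (2.83, SE 0.39, adjusted p = 9.0e-05). Cpa3, carboxypeptidase A3, known from mast cell granules and early progenitors, had 9.15, 9.60 and 9.55 in DNMAML-GSI, against 6.87, 7.02 and 7.08 in MigR1-DMSO (2.44, SE 0.26, adjusted p = 3.5e-06). Of 11 measured mast cell and basophil markers Cpa3 was the one that rose, Mcpt8, a basophil protease, fell by 0.69 (SE 0.12, adjusted p = 0.0017), and 2 of the 11 had a mean above the highest array median in each group. Each way 1 of the 11 was called (9.09%, against 1.40% of all genes higher and 1.25% lower). The mean of the list was 3.70 to 3.91 over the arrays of DNMAML-GSI and 3.62 to 3.71 over those of MigR1-DMSO.

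Sla, an adaptor that dampens signalling from the T-cell receptor, had 7.28, 7.93 and 7.49 in DNMAML-GSI, against 5.83, 5.47 and 5.55 in MigR1-DMSO. Its groups did not overlap, as the naming by size required (1.95, SE 0.25, adjusted p = 3.4e-05). Clec4e, the lectin receptor Mincle, had 8.01, 8.34 and 8.21 in DNMAML-GSI, against 6.30, 6.62 and 6.02 in MigR1-DMSO (1.87, SE 0.19, adjusted p = 2.4e-06). Aff3, a nuclear protein of the AF4 family of elongation factors, had 8.39, 8.70 and 8.83 in DNMAML-GSI, against 6.98, 7.0 and 6.73 in MigR1-DMSO (1.73, SE 0.18, adjusted p = 3.1e-06). The blocked arrays of both genes were all higher than the unblocked ones, which was also a condition of the naming.

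Tes, a focal adhesion protein, rose by 1.66 (SE 0.32), Tead1, the DNA-binding partner of the Hippo pathway coactivators, by 1.40 (SE 0.24), and Ednrb, an endothelin receptor, by 1.41 (SE 0.20). Slc15a1, a peptide transporter, rose by 1.48 (SE 0.34), and Slc7a8, a transporter of neutral amino acids, by 1.32 (SE 0.18). St8sia4, a polysialyltransferase, rose by 1.30 (SE 0.19), Cd96, a receptor of T and natural killer cells, by 1.29 (SE 0.15), and the surface glycoprotein gene Cd52 by 1.27 (SE 0.21). Their adjusted p ran up to 0.014. That of Slc15a1 went up to 0.077, and its call was lost, without DNMAML-GSI replicate 2, MigR1-DMSO replicate 1 or MigR1-DMSO replicate 3. Tead1 was highest in DNMAML-GSI replicate 3 at 7.94, with 6.92 and 6.88 in the other blocked arrays, against 5.92, 5.48 and 6.14 in MigR1-DMSO.

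Migration receptors and T-lineage genes accounted for part of the rise. Of 24 measured migration receptors 4 rose (16.7%, against 1.40% of all genes) and 0 fell, with a median of 0.14. Besides Ccr8 these were Ccr9, a receptor for homing to thymus and gut (1.25, SE 0.27, adjusted p = 0.011), Cxcr6 (1.14, SE 0.22, adjusted p = 0.0033) and Ccr2 (0.76, SE 0.15, adjusted p = 0.0039), both chemokine receptors of activated lymphocytes or monocytes. Ccr9 had 10.13, 10.38 and 10.33 in DNMAML-GSI, against 9.15, 8.92 and 9.03 in MigR1-DMSO. All blocked arrays were higher, but the call was lost without replicate 2 of either group, with adjusted p up to 0.054. Without all replicate 2 arrays limma called 0 of the 24 receptors, with 1281 genes of all at an unadjusted p under 0.05.

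Of 37 measured T-lineage genes 10 rose (27%, against 1.40% of all genes) and 3 fell (8.11%, against 1.25%), and the median was 0.09. The fallen ones were Rag1, Il2ra and Runx1. Besides Sla, the largest rises were those of Kit, the stem cell factor receptor of the earliest thymocytes (1.01, SE 0.12, adjusted p = 1.4e-05), the transcription factor gene Ets1 (0.99, SE 0.14, adjusted p = 1.3e-04) and Runx3, which acts in CD8 T cells (0.89, SE 0.12, adjusted p = 9.3e-05). Cd4 rose by 0.81 (SE 0.15, adjusted p = 0.0029), with 4.29, 4.87 and 4.86 in DNMAML-GSI, against 3.97, 3.84 and 3.78 in MigR1-DMSO. Its unblocked arrays were at or below the array medians. Cd8a was at -0.02, with a 95% interval of -0.36 to 0.33. The replicate block gave 13 T-lineage genes higher and 3 lower, and without all replicate 2 arrays 2 rose and 1 fell.

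Of 34 measured genes of T-cell receptor signalling and co-receptors 4 rose (11.8%, against 1.40% of all genes) and 0 fell. The replicate block gave 6 higher and 1 lower, and without all replicate 2 arrays 0 rose. Besides Sla these were the inhibitory receptor gene Pdcd1 (1.16, SE 0.23, adjusted p = 0.0052), the kinase gene Prkcq (0.72, SE 0.12, adjusted p = 0.0013) and the adaptor gene Lcp2 (0.52, SE 0.10, adjusted p = 0.0026). Among 30 measured cytokine receptors 6 rose (20%, against 1.40% of all genes) and 2 fell (6.67%, against 1.25%), and 9 rose with the replicate block. Without MigR1-DMSO replicate 2 or without its replicate 3, 3 rose, and without all replicate 2 arrays 1 rose and 1 fell. The rises included Kit, Il6st, the shared signalling chain of interleukin-6 receptors (0.75, SE 0.12, adjusted p = 5.0e-04), and both chains of the interferon-alpha receptor, Ifnar1 (0.67, SE 0.15, adjusted p = 0.013) and Ifnar2 (0.65, SE 0.14, adjusted p = 0.011). Both of these calls were lost without MigR1-DMSO replicate 2 or 3, and that of Ifnar1 without DNMAML-GSI replicate 1, with adjusted p up to 0.094. The interleukin-2 receptor chains went opposite ways, with Il2rb higher by 0.65 (SE 0.16, adjusted p = 0.026) and Il2ra lower by 1.33 in the fit of all arrays. Among the 6 fits without 1 array, Il2rb kept its call only without DNMAML-GSI replicate 2 or MigR1-DMSO replicate 1 (adjusted p up to 0.18). Il15ra, the matching alpha chain for interleukin-15, fell by 0.76 (SE 0.15, adjusted p = 0.0052).

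No measured gene of the cell cycle lists fell. Of 33 measured G2/M and mitosis genes 4 rose (12.1%, against 1.40% of all genes) and 0 fell, all 33 differences were above 0 and the median was 0.35. With the replicate block 17 rose, beside 662 of all 19938 genes. Nusap1, a spindle protein, had 8.57, 8.69 and 8.40 in DNMAML-GSI, against 8.02, 7.82 and 7.54 in MigR1-DMSO (0.76, SE 0.14, adjusted p = 0.0020). The others were Tpx2, a spindle assembly factor (0.60, SE 0.13, adjusted p = 0.010), Ect2, a cytokinesis factor (0.48, SE 0.13, adjusted p = 0.036), and the cyclin gene Ccnb2 (0.47, SE 0.11, adjusted p = 0.020). Leaving out 1 array ended the calls of Tpx2 in 3, of Ect2 in 4 and of Ccnb2 in 5 of the 6 fits. The list's count was then 2 without DNMAML-GSI replicate 1, 1 without DNMAML-GSI replicate 2, 1 without MigR1-DMSO replicate 3 and 3 or 4 without another array. Without all replicate 2 arrays it was 0. Of 33 measured G1/S and DNA replication genes limma called 0 either way, also with the block, and their median was -0.05.

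Brakes on proliferation rose in part. Of 24 measured quiescence genes 3 rose (12.5%, against 1.40% of all genes) and 0 fell, with a median of 0.27, and 8 rose with the replicate block. Ccng2, an atypical cyclin that FOXO factors induce, had 6.35, 6.41 and 6.28 in DNMAML-GSI, against 5.32, 5.09 and 4.96 in MigR1-DMSO, with all blocked arrays higher (1.22, SE 0.16, adjusted p = 7.5e-05). Txnip, an inhibitor of glucose uptake, had 7.71, 8.02 and 8.48 in DNMAML-GSI, against 6.82, 7.16 and 7.10 in MigR1-DMSO (1.05, SE 0.14, adjusted p = 9.8e-05). Cdkn1b, the cyclin-dependent kinase inhibitor p27, rose by 0.59 (SE 0.13, adjusted p = 0.0092, and 0.068 without DNMAML-GSI replicate 2). The survival gene Bcl2 was the one called of 16 measured members of its family (6.25%, against 1.40% of all genes higher). Bcl2 rose by 0.69 (SE 0.11, adjusted p = 4.8e-04), and 3 of the family rose with the block, beside 662 of all 19938 genes. Among 21 brakes on mTOR and PI3K the phosphatase gene Inpp4b rose by 1.15 (SE 0.16, adjusted p = 1.4e-04) and Deptor fell, and 4 rose with the block. Without the block 4.76% of this list rose and 4.76% fell, against 1.40% and 1.25% of all genes.

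In the metabolic and stress lists the called shares are set against 1.40% of all genes higher and 1.25% lower. The amino acid stress list had 8% higher and 4% lower. The p53 response list had 5.88% each way and the interferon response list 4% higher. Of 32 measured lysosome and proton pump genes 2 rose (6.25%, against 1.40% of all genes) and 0 fell, with 31 differences above 0 and a median of 0.19, and 7 rose with the replicate block. They were Atp6v0a1, of the membrane part of the vacuolar ATPase (0.96, SE 0.12, adjusted p = 4.2e-05), and the protease gene Ctsd (0.82, SE 0.15, adjusted p = 0.0023). Of 25 amino acid stress genes Ddit3, a transcription factor of the stress response, rose by 0.54 (SE 0.11, adjusted p = 0.0044), Herpud1 of the same response by 0.53 (SE 0.13, adjusted p = 0.028), and the mitochondrial folate enzyme gene Mthfd2 fell by 0.45 (SE 0.11, adjusted p = 0.035). Of the 6 fits without 1 array, Herpud1 kept its call only without MigR1-DMSO replicate 1 (adjusted p up to 0.15) and Mthfd2 only without MigR1-DMSO replicate 3 (up to 0.22). The block gave 2 genes of the list higher and 2 lower. Of 24 sterol synthesis genes 0 were called, and 1 fell with the block. Of 18 glycolysis genes 0 were called, and 2 fell with the block. Of 25 interferon response genes the peptide transporter gene Tap1 rose (0.56, SE 0.13, adjusted p = 0.013, and up to 0.087 without DNMAML-GSI replicate 1 or MigR1-DMSO replicate 3), and 3 rose with the block. Of 17 p53 response genes Trp53inp1 rose by 0.54 (SE 0.11, adjusted p = 0.0067), and the nuclease gene Aen fell by 0.72 (SE 0.18, adjusted p = 0.031), a call kept only without DNMAML-GSI replicate 2 or MigR1-DMSO replicate 3 among the 6 fits without 1 array.

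Lists of markers of other cell types averaged near or below the array medians in both groups, apart from stroma and epithelium, which averaged above the highest median of 4.18. In each group 6 of those 12 markers had a mean above it, as did 4 of 7 erythroid and megakaryocyte and 0 of 11 myeloid markers. For DNMAML-GSI and MigR1-DMSO it was 5 and 4 of 15 natural killer and innate markers, and 1 and 2 of 9 B-cell markers. None of the 9 measured B-cell, 11 myeloid and 7 erythroid and megakaryocyte markers was called, and with the replicate block 1 B-cell marker rose, and 1 myeloid marker rose and 1 fell. The mean over the B-cell markers was 3.51 to 3.64 over the arrays of DNMAML-GSI and 3.48 to 3.51 over those of MigR1-DMSO, and that over the myeloid markers 3.09 to 3.28 in DNMAML-GSI and 3.19 to 3.23 in MigR1-DMSO. For the erythroid and megakaryocyte markers it was 3.74 to 3.79 in DNMAML-GSI and 3.63 to 3.83 in MigR1-DMSO. Of 15 natural killer and innate markers Rora, a nuclear receptor, rose by 0.71 (SE 0.18, adjusted p = 0.033), a call kept only without DNMAML-GSI replicate 2 or MigR1-DMSO replicate 3 among those fits, and the list averaged 4.07 to 4.23 in DNMAML-GSI and 4.09 to 4.13 in MigR1-DMSO. Rora was 6.67% of that list, against 1.40% of all genes higher, and with the block 2 of the list rose and 1 fell. Of 12 stroma and epithelium markers Pecam1, an adhesion receptor also made by blood cells, rose by 1.05 (SE 0.18, adjusted p = 0.0011), and the list averaged 4.22 to 4.43 in DNMAML-GSI and 4.24 to 4.35 in MigR1-DMSO. The growth factor receptor gene Pdgfrb fell by 0.72 (SE 0.16, adjusted p = 0.0092, and up to 0.056 without DNMAML-GSI replicate 2 or MigR1-DMSO replicate 3), and Cdh1, E-cadherin, by 0.72 (SE 0.14, adjusted p = 0.0039). Of this list 8.33% rose and 16.7% fell, against 1.40% and 1.25% of all genes.

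The double block was set beside each block alone, DNMAML-DMSO against MigR1-DMSO and MigR1-GSI against MigR1-DMSO. These comparisons share the MigR1-DMSO arrays, so likeness between them is partly built in, and the values are given side by side. DNMAML alone changed 386 genes (1.94%), 220 higher (1.1%) and 166 lower (0.833%). GSI alone changed 33 (0.166%), 6 higher (0.0301%) and 27 lower (0.135%). At an unadjusted p under 0.05 there were 2071 genes with DNMAML alone and 972 with GSI alone, where 996.9 would be expected with no difference. With the replicate block the called genes were 934 and 82, and with only the groups compared 262 and 4. GSI acted for 6 hours, and how long the cells had carried DNMAML is not stated. Of the 280 genes that rose with both blocks, 179 were also called higher with DNMAML alone and 5 with GSI alone, and 101 with neither. Of the 249 that fell, 138 were also called lower with DNMAML alone and 27 with GSI alone, and 108 with neither. The median difference of the risen genes was 0.66 with both blocks, 0.60 with DNMAML alone and 0.28 with GSI alone. For the fallen genes it was -0.68 with both, -0.54 with DNMAML alone and -0.35 with GSI alone. Of the 15 named fallen genes 12 were called with GSI alone, and of the 15 named risen genes 0. All 15 of these risen genes still had a difference above 0 with GSI alone, from 0.08 to 1.499. All 15 of these fallen genes had one below 0, from -1.59 to -0.51.

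**Figure D4:**
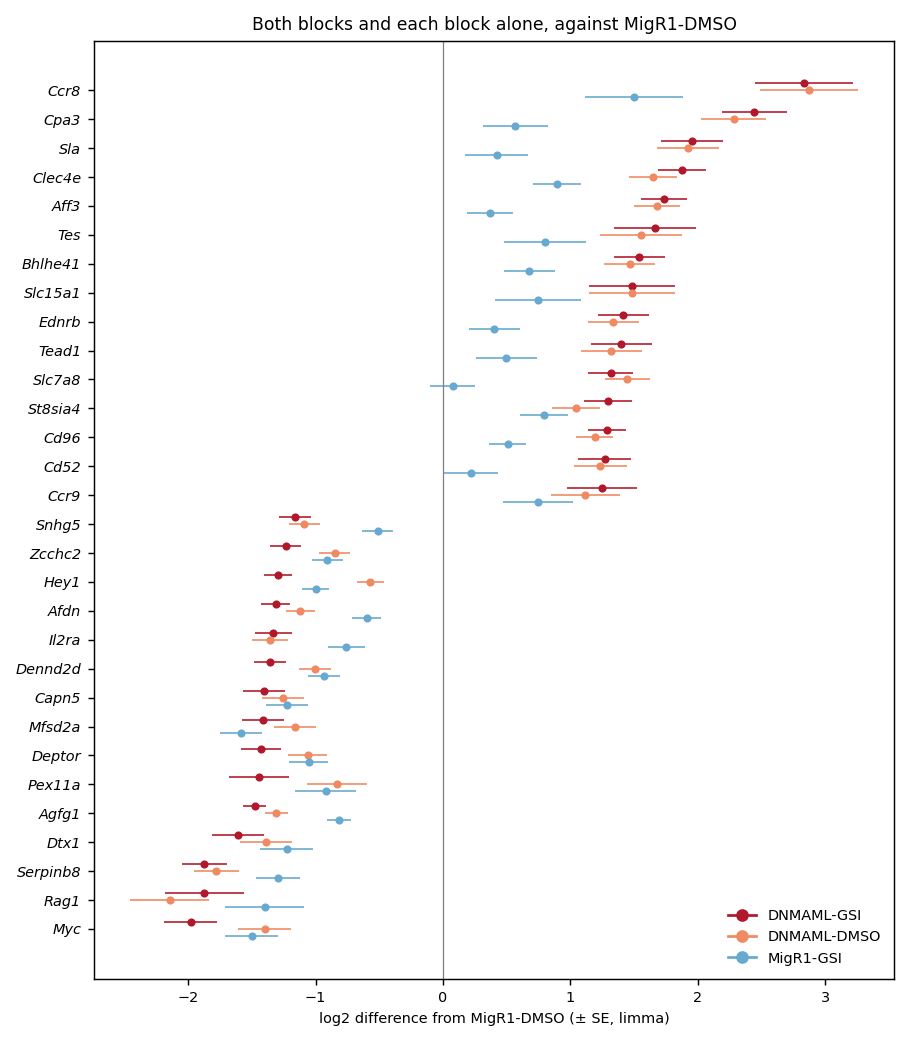
The 15 named risen and 15 named fallen genes are shown by their log2 difference from MigR1-DMSO in DNMAML-GSI (red), DNMAML-DMSO (orange) and MigR1-GSI (light blue), with bars of ± 1 SE from limma. Slc7a8 is at 1.32 with both blocks, 1.45 with DNMAML alone and 0.08 with GSI alone, and Mfsd2a at -1.41, -1.16 and -1.59.

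Adding GSI to cells that already carried DNMAML called 1 gene (0.00502%), Hey1. Hey1 had 8.68, 8.43 and 8.37 in DNMAML-GSI, against 9.22, 9.34 and 9.09 in DNMAML-DMSO (-0.72, SE 0.11, adjusted p = 0.014). The arrays did not overlap, but the call was lost without DNMAML-GSI replicate 2 or 3 or DNMAML-DMSO replicate 1 or 2, with adjusted p up to 0.28. At an unadjusted p under 0.05 there were 507 genes, and 1034 with the replicate block, where 996.9 would be expected with no difference. For Myc the difference between DNMAML-GSI and DNMAML-DMSO was -0.58, with a 95% interval of -1.02 to -0.14, and it was not called.

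Adding DNMAML to cells that already received GSI called 38 genes (0.191%), 21 higher (0.105%) and 17 lower (0.0853%) in DNMAML-GSI than in MigR1-GSI, and 163 with the replicate block. The count was 23, 9 and 12 without replicate 1, 2 or 3 of DNMAML-GSI, and 12, 12 and 21 without those of MigR1-GSI. Cpa3 had 9.15, 9.60 and 9.55 in DNMAML-GSI, against 7.47, 7.60 and 7.61 in MigR1-GSI (1.88, SE 0.26, adjusted p = 0.0020). Sla (1.53, SE 0.25), Aff3 (1.37, SE 0.18), Slc7a8 (1.24, SE 0.18) and Cd52 (1.05, SE 0.21) were also higher, with adjusted p up to 0.027. Among the genes lower in DNMAML-GSI were Fabp4, a fatty acid carrier (-0.86, SE 0.16), Srm (-0.85, SE 0.15), Bcat1, an enzyme of branched-chain amino acids (-0.76, SE 0.13), Afdn (-0.71, SE 0.11) and Agfg1 (-0.66, SE 0.09), with adjusted p up to 0.016. The calls of Fabp4, Srm and Bcat1 were each lost in 4 of the 6 fits without 1 array, always including DNMAML-GSI replicate 2 and replicate 3. Cd52 kept its call only without MigR1-GSI replicate 2, and Sla lost it without DNMAML-GSI replicate 2.

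Whether the response to GSI differed between DNMAML and MigR1 cells was tested as an interaction, and limma called 1 gene, Nrarp (0.00502%). At an unadjusted p under 0.05 there were 621 genes, and 1125 with the replicate block. Nrarp had 4.16, 4.10 and 4.25 in DNMAML-GSI, 4.07, 4.10 and 4.02 in DNMAML-DMSO and 4.0, 4.10 and 4.17 in MigR1-GSI, against 5.12, 5.41 and 5.38 in MigR1-DMSO. The arrays with either block or both lay together, and those with neither stood apart. The difference with GSI was 0.11 in DNMAML cells (95% interval -0.11 to 0.33) and -1.21 in MigR1 cells, and these responses differed by 1.32 (SE 0.15, adjusted p = 2.0e-04). With the replicate block Mfsd2a (1.34), Serpinb8 (1.20) and Capn5 (1.08) were called as well, with adjusted p up to 0.027, while without it their adjusted p was 0.093, 0.34 and 0.46. All 30 named genes had an interaction of the sign opposite to their own difference, but without the block limma called it for none of them. Among all genes called with both blocks, this sign was seen in 244 of the 280 risen and 222 of the 249 fallen ones. The share over all genes was not counted, and a sign alone is not a call.

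The genes called with both blocks were then read in arrays that the comparison did not use for its groups, ICN1-GSI against MigR1-GSI, which share no array with DNMAML-GSI or MigR1-DMSO. All are from the same line, and the common spread estimate includes all 24 arrays. In this comparison 469 genes were called (2.35%), 255 higher (1.28%) and 214 lower (1.07%). With the replicate block 960 were called, and with only the groups compared 167. Of the 280 genes that rose with both blocks, 127 were lower in ICN1-GSI (45.4% of them, and 59.3% of the 214), and 0 were higher. Of the 249 that fell with both blocks, 104 were higher in ICN1-GSI (41.8% of them, and 40.8% of the 255), and 0 were lower. Their medians in ICN1-GSI were -0.51 for the genes that rose with both blocks and 0.46 for those that fell.

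Of the 30 named genes 29 were called in the opposite direction in ICN1-GSI. Rag1 was higher there by 3.93 (SE 0.31, adjusted p = 2.3e-08), Serpinb8 by 3.29 (SE 0.17, adjusted p = 1.8e-11) and Nrarp by 2.28 (SE 0.11, adjusted p = 3.4e-12). Myc was higher by 1.75 (SE 0.21, adjusted p = 1.0e-05). Ccr8 was lower by 3.45, on the scale of its rise of 2.83 with both blocks. Slc7a8 was the exception, at -0.26 in ICN1-GSI against MigR1-GSI (SE 0.18, adjusted p = 0.71). Of the Myc and ribosome biogenesis list 10 genes were higher in ICN1-GSI and 0 lower, with a median of 0.29, and of the G2/M list 0 were higher and 2 lower, with a median of -0.22. Ddit3 and Herpud1, which rose with both blocks, were at 0.03 and 0.05 in ICN1-GSI.

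**Figure D5:**
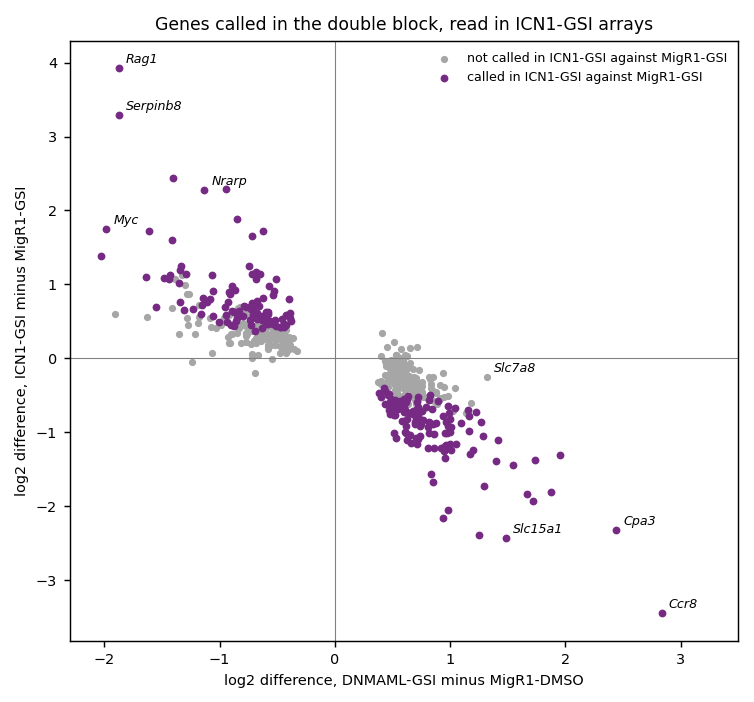
Each point is 1 of the 529 genes called with both blocks, with the log2 difference of DNMAML-GSI minus MigR1-DMSO on the horizontal axis and of ICN1-GSI minus MigR1-GSI on the vertical axis, and purple points are called in ICN1-GSI against MigR1-GSI. Called points lie only in the upper left, 104 genes, and the lower right, 127 genes, with Rag1 at 3.93 and Ccr8 at -3.45 on the vertical axis.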

How the data were processed

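RNA of T6E cells was measured on Affymetrix Mouse Gene 1.0 ST arrays. The authors deposited log2 values of expression for each probe set. They used oligo and limma, per the submitters' processing notes. For background, normalization and summary, the method is not given in the sources used, and the log2 scale was read from the values (1.28 to 13.5). The values were used without further scaling or a filter on dim genes. Of 35556 probe sets 21789 had 1 symbol in the platform annotation, 1621 several and 12146 none in the table used. The probe set with the highest mean was kept for each gene, leaving 19938 genes.

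limma 3.58.1 (R 4.3.3) was fitted to all 24 arrays with 8 group means (16 residual degrees of freedom), and a gene was called at a Benjamini-Hochberg adjusted p under 0.05, two-sided. Named genes are the 15 largest called rises and falls in the double block (5 each elsewhere) with groups that do not overlap, without clone names, small RNAs and receptor segments, together with called Notch targets, up to 4 called members of each other list, and label checks. Cd3e, Cd4, Cd8a, Ets1, Runx3, Gnl3, Polr1a, Polr1b, Nop2, Ifnar1, Ifnar2 and Il2rb were named beyond this rule, after their values were seen. The genes, lists and comparisons were chosen with earlier results of these data known, so their counts are descriptions. Groups and replicate numbers come from the titles. Samples of the same number in DNMAML-GSI and MigR1-DMSO deviated together (r = 0.106 to 0.453), so fits with the number as a block are given beside many of the results. Overlaps of called genes between comparisons were counted only without the block. No label says that the samples of a group were separate cultures, so the p-values rest on a spread between samples that may be technical. Promoter sequences are RefSeq's, GRCm38.p6, found for 15562 genes. Alternatives tried were the block, only the groups compared, a filter on dim genes, a second quantile normalization, every probe set, array weights, a variance trend, and arrays left out. On simulated data for this comparison, 100 of the 19938 genes were shifted by each size. There limma called 96 of the 100 genes shifted by 1 and 33 of the 100 shifted by 0.5, with 6 false calls. How many are called when samples of the same number deviate together, as they did here, was not tested.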

Additional observations from a re-analysis of the deposited data

Results flagged for a closer look

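The response of Nrarp to GSI differed between DNMAML and MigR1 cells by a test of the difference itself. It was 0.11 in DNMAML cells and -1.21 in MigR1 cells, a difference of 1.32 (SE 0.15, limma adjusted p = 2.0e-04). The means of DNMAML-GSI, DNMAML-DMSO and MigR1-GSI were all between the lowest and the highest array median, 3.90 and 4.18, and how far such values can still fall was not tested.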

How the results depend on the processing

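The 98 named genes were followed over 1636 gene values, of which 1396 kept their direction and side of the threshold, 231 lost the call and 1 gained it. The other 8 changed sign, all of Cd3e and Cd8a, which were not called: Cd3e was at -0.0051 without all replicate 2 arrays, and Cd8a at 0.011 after a second quantile normalization, 0.043 with array weights, 0.17 without all replicate 1 arrays and -0.18 to 0.13 without 1 array. The medians of 11 of the 24 lists took the other sign in at least 1 alternative, those of the Myc and ribosome biogenesis, G2/M, quiescence and T-lineage lists in none. For DNMAML-GSI against MigR1-DMSO, 529 genes became 1170 with the replicate block and 1091 with array weights. Leaving out 1 array gave 328 to 387, and leaving out all arrays of replicate 1, 2 or 3 gave 179, 61 and 416. The other settings gave 364 genes (only the groups compared), 664 (10925 genes above the overall median), 667 (second quantile normalization), 507 (every probe set) and 544 (variance trend). With the replicate block the count was 163 for DNMAML under GSI, 4 for the interaction, 82 for GSI alone, 934 for DNMAML alone and 960 for ICN1-GSI. No label states that samples of the same number are paired. The main fits treated no samples as paired, and the block was only an alternative. Samples of the same number were said to deviate together where the lowest correlation between their deviations was above 0.1. ICN1-GSI against MigR1-GSI fell below this, at 0.062. The other comparisons passed, DNMAML-GSI against MigR1-DMSO only just, at 0.106. With only the groups compared, it was 5 for DNMAML under GSI, 4 for GSI alone and 167 for ICN1-GSI, and limma called 0 for GSI in DNMAML cells (579 at an unadjusted p under 0.05). Leaving out 1 array gave 9 to 23 for DNMAML under GSI and 0 to 2 for GSI in DNMAML cells. The cause of these changes was not tested, and the smaller fits also hold fewer arrays. The number of arrays limits the precision, and values near the array medians are close to those of the typical probe set.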

Other observations

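Gene families beyond the lists were counted after the calls were seen, so these counts are descriptions. Of 53 genes that RefSeq types as small nucleolar RNAs, guides of ribosomal RNA modification, 0 rose and 26 fell in DNMAML-GSI against MigR1-DMSO, beside 1.25% of all genes, with a median of -0.91. The fallen ones lay between -2.03 and -0.89. Snord57 averaged 5.49 ± 0.53 in DNMAML-GSI and 7.51 ± 0.09 in MigR1-DMSO, and Snora33 6.97 ± 0.24 and 8.53 ± 0.06 (SD, n = 3 each). Some small nucleolar RNAs have close copies, whose probes may read more than 1 gene. The median of the 53 was -0.74 with DNMAML alone and -0.50 with GSI alone.

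Other families of the ribosome followed in part. Of 17 Utp and Rrp genes, which process ribosomal RNA, 0 rose and 8 fell (47.1%, against 1.25% of all genes), with Rrp1b at -1.15 (SE 0.12). Of 18 Nol and Nop genes 0 rose and 6 fell (33.3%). Of 60 genes with Rpl or Rps symbols, the proteins of the ribosome itself, 0 rose and 3 fell (5%), and the median was -0.02. The fallen ones were Rpl12, Rpl30 and Rplp2. Rpl30 lost its call without replicate 3 of either group, and Rplp2 kept it only without DNMAML-GSI replicate 1. Of 5 Polr1 genes of RNA polymerase I 2 fell (40%), and of 13 Polr2 genes of RNA polymerase II limma called 0. Of 20 sialyltransferase genes, which cap surface glycans, St8sia4 (1.30), St6gal1 (1.09) and St3gal1 (1.00) rose, against 1.40% of all genes. St6galnac4 fell by 0.91 (5% of the family).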
